A study of Mus musculus with 8 samples.

Results

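The Ikaros family of transcription factors comprises Ikzf1 (Ikaros), Ikzf2 (Helios), Ikzf3 (Aiolos), Ikzf4 (Eos) and Ikzf5 (Pegasus), and its 5 members were taken by symbol from a table of 23284 genes. They were measured by RNA sequencing in LSK cells of mouse bone marrow, the lineage-negative fraction with surface Sca-1 and c-Kit that holds haematopoietic stem cells and multipotent progenitors. The mice were on a C57BL/6 background and carried a green fluorescent protein reporter (Hdc-GFP) for histidine decarboxylase, the enzyme that makes histamine. LSK cells were sorted into a fraction with high reporter signal (Hdc-GFPhi, n = 4 libraries) and one with low signal (Hdc-GFPlo, n = 4 libraries), with 2000 cells per library. All 8 libraries share the strain, the reporter and the LSK gate, and no treatment is labelled. The sources used here do not give the reporter construct, the age and sex of the mice or the number of mice per library. The labels of Hdc-GFPhi replicate 4 name its cells GFP+ rather than GFPhi, and those of Hdc-GFPhi replicate 2 name its mice by the sorted fraction. Library totals were 16726179 to 23051277 counts, and 14856 to 15446 genes had at least 1 count.

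Ikaros proteins carry a group of zinc fingers near the amino terminus that binds DNA with a GGGAA core, and a pair of fingers at the carboxyl terminus through which members bind themselves and each other. They recruit chromatin remodelling and deacetylase complexes, above all NuRD, and can repress or activate genes. Ikaros is required for lymphocyte development and for lymphoid gene expression in multipotent progenitors. Helios is known from stem cells and T cells, Aiolos from B cell maturation, Eos from regulatory T cells, where it acts with Foxp3, and Pegasus is the most divergent member.

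The DNA-binding fingers of Ikzf1 to Ikzf4 are printed to show how close these 4 members are in sequence. Coding sequences were taken from the longest coding transcript of each gene in the GENCODE M21 mouse set, and C2H2-type fingers were searched for as cysteine, 2 codons, cysteine, 12 codons, histidine, 3 to 5 codons and a last histidine or cysteine. The pattern was found 6 times each in Ikzf1, Ikzf2 and Ikzf3 and 5 times each in Ikzf4 and Ikzf5. Other transcripts were not searched, so these counts may not hold for every form of a gene. The fingers of Ikzf5 were not lined up with those of the other members. The second finger of Ikzf1 to Ikzf4, part of the DNA-binding group, is shown 5′ to 3′ with the codons of the zinc-binding residues in capitals.
Ikzf1: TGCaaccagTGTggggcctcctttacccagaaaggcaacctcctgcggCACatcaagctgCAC
Ikzf2: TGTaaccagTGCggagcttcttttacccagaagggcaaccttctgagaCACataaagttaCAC
Ikzf3: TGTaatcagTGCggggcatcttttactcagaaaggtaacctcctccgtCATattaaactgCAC
Ikzf4: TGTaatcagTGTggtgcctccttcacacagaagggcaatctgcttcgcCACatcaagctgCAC
Of 63 bases, Ikzf2 shared 51, Ikzf3 shared 51 and Ikzf4 shared 53 with Ikzf1, and the 21 encoded residues were the same in these 4 genes. Counts here are per gene, so splice forms of Ikzf1 that lack DNA-binding fingers are counted together with the full-length form.

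Ikzf1 fell and Ikzf4 rose in Hdc-GFPhi, and the other 3 members were not called. The test was edgeR's quasi-likelihood test over 13300 genes with p-values adjusted by Benjamini-Hochberg, and a gene is called where its adjusted p was under 0.05. Thus 2 of the 5 members were called, against 0.947% of all genes tested. For 3 members, Ikzf1, Ikzf3 and Ikzf4, the fractions did not overlap, where 6.92% of all genes tested showed such a separation in either direction. All 5 members passed the filter on low counts.

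Ikzf1, the founding member of the family, had 177, 176.5, 192 and 175 CPM (read counts scaled to library size, with edgeR's TMM factor for composition) in Hdc-GFPhi replicates 1 to 4. In Hdc-GFPlo replicates 1 to 4 it had 268, 257, 231 and 238 CPM. Every Hdc-GFPhi library lay below every Hdc-GFPlo library, a separation in this direction that 3.54% of all genes tested showed. The means were 180 ± 8.1 and 248 ± 17.1 CPM (SD, n = 4 each), a log2 fold change of -0.46 ± 0.09 (SE; 95% interval -0.66 to -0.27) or 1.38-fold lower (edgeR adjusted p = 0.0311). The counts behind these values were 3783 to 4318 and 4174 to 6067 per library. The size of the fall moved little when single libraries were left out, from -0.49 to -0.43, but the call was kept in 1 of 8 such fits, the one without Hdc-GFPlo replicate 3 (adjusted p = 0.0151). In the other 7 the adjusted p was 0.0683 to 0.149.

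Ikzf4, known mainly as a corepressor partner of Foxp3, had 6.15, 5.55, 7.26 and 5.62 CPM in Hdc-GFPhi replicates 1 to 4. In Hdc-GFPlo it had 3.23, 2.61, 2.55 and 1.98 CPM, from 39 to 73 counts per library against 119 to 163 in Hdc-GFPhi. Again the fractions did not overlap, in a direction that 3.38% of all genes tested showed. Hdc-GFPhi averaged 6.14 ± 0.789 and Hdc-GFPlo 2.59 ± 0.512 CPM (SD, n = 4 each), a log2 fold change of 1.24 ± 0.24 (SE; 95% interval 0.71 to 1.77) or 2.36-fold higher (edgeR adjusted p = 0.0312). With 1 library left out the log2 fold change was 1.13 to 1.37. The call was kept without Hdc-GFPhi replicate 2 or 4 and lost in the other 6 fits (adjusted p = 0.0578 to 0.117), and leaving out both Hdc-GFPhi replicate 4 and Hdc-GFPlo replicate 3 also ended it (adjusted p = 0.0761).

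**Figure D1:**
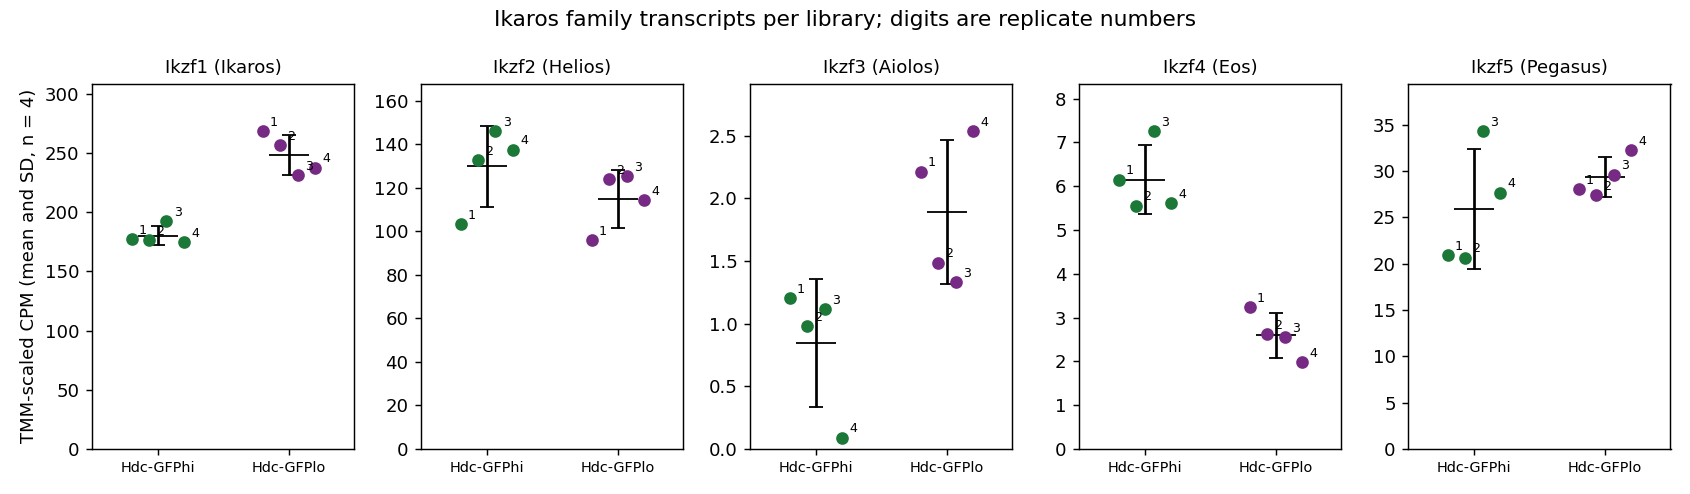
Level of each member in each library, as TMM-scaled CPM on an axis of its own that starts at 0, with the mean and SD of each fraction in black and replicate numbers beside the points. Ikzf1 was at 175 to 192 CPM in Hdc-GFPhi and 231 to 268 in Hdc-GFPlo, Ikzf4 at 5.55 to 7.26 and 1.98 to 3.23, and the fractions overlapped for Ikzf2 and Ikzf5.

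Ikzf2, the stem and T cell member, was not called. Its levels were 103, 133, 146 and 138 CPM in Hdc-GFPhi replicates 1 to 4 and 96, 124, 125 and 114 CPM in Hdc-GFPlo. Replicate 1 was the lowest library of each fraction, and the ranges overlapped widely. The fitted log2 difference of 0.18 had a 95% interval of -0.10 to 0.45 (edgeR adjusted p = 0.708), so these libraries do not fix the direction.

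Ikzf5 had 20.9, 20.6, 34.3 and 27.6 CPM in Hdc-GFPhi replicates 1 to 4 and a narrower 28, 27.4, 29.6 and 32.2 CPM in Hdc-GFPlo. Hdc-GFPhi replicates 1 and 2 lay below all other libraries, and Hdc-GFPhi replicate 3 lay above all of them. The log2 fold change was -0.18 (95% interval -0.55 to 0.19, edgeR adjusted p = 0.796). With a model term that separated replicates 1 and 2 from 3 and 4, the difference between fractions had an edgeR adjusted p of 0.574. The split itself was not tested.

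Ikzf3, the B cell member, was close to the lower limit of these libraries. It had 27, 21, 25 and 2 counts in Hdc-GFPhi replicates 1 to 4 and 50, 25, 24 and 50 counts in Hdc-GFPlo. In CPM that was 1.2, 0.98, 1.11 and 0.0891 against 2.21, 1.49, 1.33 and 2.54. The fractions did not overlap in CPM, but the gap between the nearest libraries, at 1.2 and 1.33 CPM, was small. The log2 fold change of -1.16 had a 95% interval of -2.39 to 0.07 (edgeR adjusted p = 0.507), and it was -0.78 without Hdc-GFPhi replicate 4.

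**Figure D2:**
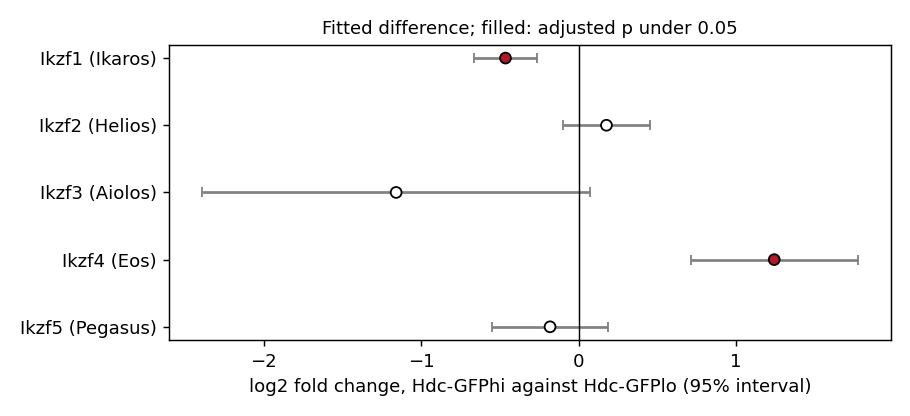
Log2 fold change of each member, Hdc-GFPhi against Hdc-GFPlo, with its 95% interval from the edgeR fit, and filled points where the adjusted p was under 0.05. The intervals of Ikzf1 (-0.66 to -0.27) and Ikzf4 (0.71 to 1.77) lie on opposite sides of 0, and that of Ikzf3 (-2.39 to 0.07) is the widest.

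Levels of different genes are compared here as CPM per kilobase of total exonic length in GENCODE M21. Ikzf1 was the most abundant member in every library, with a mean level of 31.2 ± 1.4 in Hdc-GFPhi and 43 ± 2.96 in Hdc-GFPlo (SD, n = 4 each). Ikzf2 followed with mean levels of 11.2 ± 1.6 and 9.89 ± 1.16, then Ikzf5 with 4.52 ± 1.13 and 5.12 ± 0.378. Ikzf4 had mean levels of 1.02 ± 0.132 and 0.432 ± 0.0854, and Ikzf3 was lowest with 0.0967 ± 0.0586 and 0.216 ± 0.0659. On this scale no 2 neighbours in the order overlapped within a fraction. When the longest transcript was used for length, Ikzf4 (0.384 to 0.627) and Ikzf3 (0.288 to 0.55) did overlap in Hdc-GFPlo.

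Ikzf1 made up 65.1% ± 2.96 of the summed CPM per kilobase in Hdc-GFPhi, with a range of 62.6% to 69.1%, and 73.2% ± 2.67 in Hdc-GFPlo, with a range of 70.8% to 76.9% (SD, n = 4 each). The share of Ikzf2 was 20% to 24.7% in Hdc-GFPhi and 13.7% to 19.1% in Hdc-GFPlo, and that of Ikzf4 was 1.96% to 2.31% and 0.576% to 0.892%. Shares sum to the whole, so a lower share of Ikzf1 raises the others, and the larger share of Ikzf2 goes with a level that did not pass the test. Log2 ratios of members were taken as differences of log2 CPM with a prior count of 2. Scaling between libraries cancels in them except for its small effect through that prior. The log2 ratio of Ikzf4 to Ikzf1 was -4.97 to -4.71 in Hdc-GFPhi and -6.84 to -6.34 in Hdc-GFPlo. That of Ikzf2 to Ikzf1 was -0.78 to -0.34 and -1.48 to -0.88. These shares and ratios are descriptions and carry no test.

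**Figure D3:**
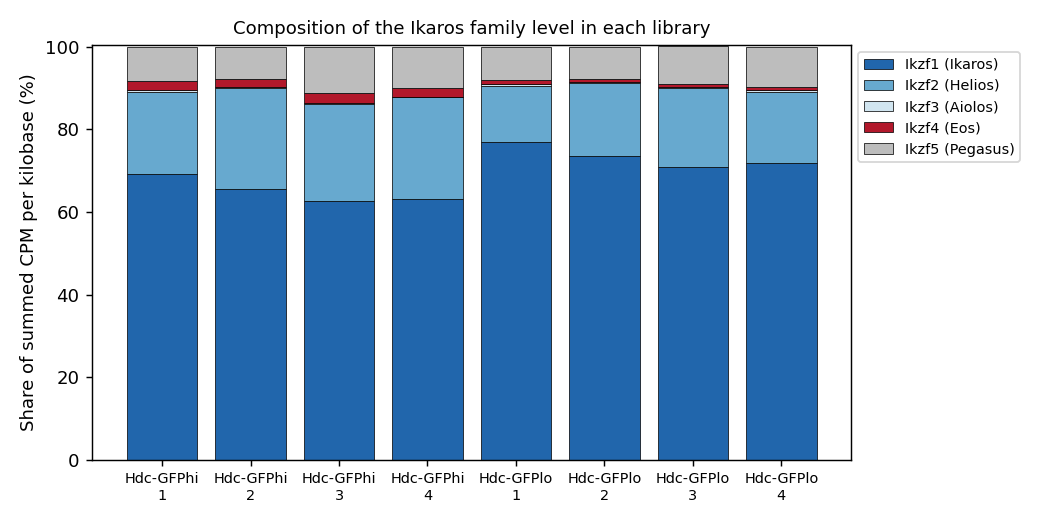
Share of each member in the summed CPM per kilobase of the 5 members, in percent, 1 bar per library. Ikzf1 fills 62.6% to 69.1% of the Hdc-GFPhi bars and 70.8% to 76.9% of the Hdc-GFPlo bars, and Ikzf4 is the thin red band at 1.96% to 2.31% and 0.576% to 0.892%.

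Of 18 genes on which Ikaros proteins are known to act in lymphocytes or their precursors, 14 had enough counts to be tested. Of these 14, 8 fell in Hdc-GFPhi, 0 rose and 6 did not pass the test (Flt3, Foxo1, Myc, Ccnd3, Cdk6 and Hes1). Over all genes tested, 0.707% fell. An unadjusted p under 0.05 was found for 13 of the 14, against 10.9% of all genes tested. The median log2 fold change was -2.23 over the 14 genes and 0 over all genes tested. The list was drawn up with earlier results of these data known and is no independent evidence of its direction.

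Among the genes that fell, Dntt, the terminal transferase of lymphocyte precursors, had a log2 fold change of -2.32 ± 0.21 (SE). Il7r, which encodes the alpha chain of the IL-7 receptor, had -2.73 ± 0.25, and Blnk, the adaptor of pre-B cell receptor signalling, had -2.60 ± 0.37. Ebf1, a B lineage transcription factor, had -2.42 ± 0.35, and Vpreb1, of the surrogate light chain, had -3.87 ± 0.38. The recombinase genes Rag2 (-2.13 ± 0.23) and Rag1 (-2.45 ± 0.50) and the surrogate light chain gene Igll1 (-4.34 ± 0.74) were also called, but Rag1 and Igll1 only just (edgeR adjusted p = 0.0388 and 0.0483). The calls on Rag1 and Igll1 were each lost in 7 of 8 fits with 1 library left out, all but the one without Hdc-GFPhi replicate 4 (adjusted p up to 0.173 and 0.151). Igll1 was also not called under any other scaling between libraries (adjusted p = 0.0512 to 0.055) or when every gene with at least 1 count was tested (0.0978), so that it was called under 9 of 20 alternatives, and Rag1 under 13. Vpreb1 has a near-identical copy, and the sources used here do not say how reads shared by both were counted.

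Hes1, Ccnd3 and Myc, also on this list, were not called. The list was not split into genes that Ikaros represses and genes that it activates. The Notch target Hes1 had a log2 fold change of -1.53 ± 0.36 (edgeR adjusted p = 0.0748; called under 3 of 20 alternatives), the D-type cyclin Ccnd3 -0.37 ± 0.13 and Myc -0.16 ± 0.11. The cytokine receptor Flt3, which depends on Ikaros in progenitors, averaged 876 ± 91 CPM in Hdc-GFPhi and 1240 ± 203 in Hdc-GFPlo (SD, n = 4 each; log2 fold change -0.50, edgeR adjusted p = 0.0965), and was called under 6 of 20 alternatives. Cd8a, Cd8b1, Dtx1 and Il2 had too few counts to be tested, with at most 30 counts over the 4 libraries of a fraction.

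The GGGAA core was looked for on both strands in the 250 bases before each RefSeq start site (GRCm38.p6). It occurred in 56.2% of 32851 such windows, and 2 or more times in 21.2%, so a match says little on its own. The 8 genes that fell had 9 windows, of which 7 had a match. By gene, 6 of the 8 had a match in at least 1 window, and Igll1 and Blnk had 0. Among the members, Ikzf1 (2 start sites) and Ikzf5 were matched to an entry, and Ikzf2, Ikzf3 and Ikzf4 are not shown. The window of the upstream Ikzf1 start had 0 matches. The window of the downstream Ikzf1 start and that of Il7r each had 2 matches, and both are printed 5′ to 3′ on the gene's strand with the matches in capitals (TTCCC is the core on the other strand), to show what the search found at a called member and at a target that fell.
Ikzf1, chr11:11689927-11690176, plus strand: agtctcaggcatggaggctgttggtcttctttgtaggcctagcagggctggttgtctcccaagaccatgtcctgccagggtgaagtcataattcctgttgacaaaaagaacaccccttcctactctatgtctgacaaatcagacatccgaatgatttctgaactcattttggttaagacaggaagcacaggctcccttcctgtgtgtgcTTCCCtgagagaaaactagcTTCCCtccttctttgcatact
Il7r, chr15:9529877-9530126, minus strand: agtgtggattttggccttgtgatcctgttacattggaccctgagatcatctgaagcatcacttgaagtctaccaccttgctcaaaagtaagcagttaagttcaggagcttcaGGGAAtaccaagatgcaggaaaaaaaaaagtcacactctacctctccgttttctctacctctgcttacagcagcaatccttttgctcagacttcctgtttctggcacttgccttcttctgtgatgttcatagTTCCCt
The matches are descriptions of these letters, and binding was not measured.

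No listed gene of the complexes that work with Ikaros proteins was called, and counts at an unadjusted p under 0.05 are read here against 10.9% of all genes tested. Of 14 genes of the NuRD complex, 0 were called with edgeR, DESeq2 or limma voom, 2 had an unadjusted p under 0.05 in edgeR, a share near that background, and the log2 fold changes ran from -0.26 to 0.11 (median -0.04). The methyl-CpG-binding subunit Mbd2 had -0.26 ± 0.11 (SE) and the metastasis-associated subunit Mta3 had -0.23 ± 0.10, while Chd4, the remodelling ATPase that Ikaros binds, had 0.11. Of 4 Sin3 and CtBP corepressor genes, 0 were called by any of these tools and 0 had an unadjusted p under 0.05, and Ctbp2, a corepressor that Eos and Ikaros can bind, had 0.24 ± 0.11. Of 13 SWI/SNF remodelling genes, 0 were called by these tools and 1, the ATPase Smarca2 (0.29 ± 0.11), had an unadjusted p under 0.05. Of 5 genes of the cereblon ubiquitin ligase, through which thalidomide-type drugs degrade Ikaros and Aiolos in human cells, 0 were called by these tools and 0 had an unadjusted p under 0.05. Cereblon itself (Crbn) had a mean of 83.8 CPM in the high and 88.3 CPM in the low fraction (log2 fold change -0.08 ± 0.11).

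**Figure D4:**
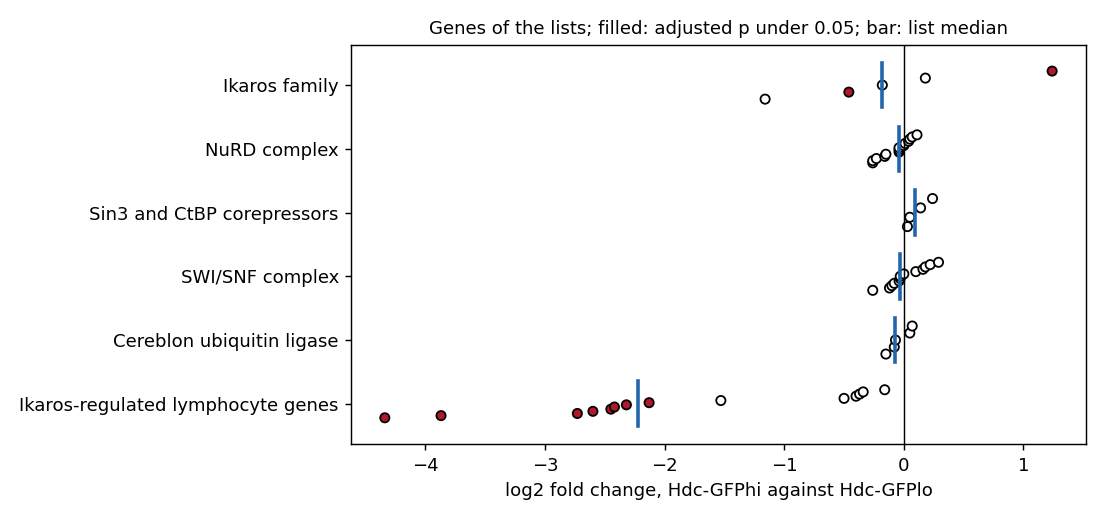
Log2 fold change of each tested gene in the family and the 5 lists, filled where the adjusted p was under 0.05, with a blue bar at the list median. The genes regulated by Ikaros spread from -4.34 to -0.16 with 8 called, while the NuRD genes lie between -0.26 and 0.11 with 0 called.

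Genes next to Ikzf4 and Ikzf5 on the chromosome were not called. In RefSeq order, Ikzf4 lies between the ribosomal protein gene Rps26 (log2 fold change -0.10 ± 0.21) and the sulfite oxidase gene Suox (0.10 ± 0.18). Ikzf5 lies between Pstk (0.08 ± 0.20), whose annotation overlaps that of Ikzf5 on the other strand, and Acadsb (-0.06 ± 0.13), and Ikzf1 is followed by Fignl1 (0.08 ± 0.15). The neighbour before Ikzf1, 4930415F15Rik, and those of Ikzf2 and Ikzf3 had at most 55 counts in all and were not tested. The sources used here do not give the strand setting of the counting. GENCODE M21 lists overlapping genes on the other strand for Ikzf1, Ikzf2, Ikzf4 and Ikzf5. Without the setting, it is not known whether their reads were counted with those of the member. Genes on the same strand, which no strand setting separates, overlap Ikzf5 (Fgfr2 and Gm44625), Ikzf2 (Gm29112 and Gm28112, both annotated as intronic) and Ikzf3 (Gm25106). Overlap was taken from whole gene spans, introns included, and overlap of exons was not examined. Of all these overlapping genes, Fgfr2 and Pstk have rows of their own in the count table.

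Over the 8 libraries, the genes whose log2 CPM followed a member most closely, of 10658 compared (10659 for Ikzf3), differed from member to member. For Ikzf1 they were the adhesion receptor Gpr97 (Pearson r = 0.982), Tpd52 (0.978) and the inhibitory lymphocyte receptor Btla (0.977), of which Gpr97 (log2 fold change -1.06 ± 0.12) and Btla (-1.06 ± 0.17) fell in Hdc-GFPhi. For Ikzf4 they were the peptidase Dpp7 (0.941), the kinesin Kif21a (0.938) and Fndc4 (0.937), of which Kif21a rose (1.45 ± 0.23). Ikzf2 was followed by Mpp7 (0.951), Rnf125 (0.945) and Zfp945 (0.92), and Ikzf5 by Zfp935 (0.985), Creb1 (0.982) and the splicing factor Srsf1 (0.962), and none of these 6 was called. Ikzf3 was followed by Ppt1 (0.963), Gprin3 (0.962) and Tmem119 (0.951), also not called. These are the highest of many correlations over libraries that fall into 2 fractions, and they carry no test.

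Markers of the sorted cells were present, and the summed levels of several other marker lists did not overlap between the fractions. Kit had a mean of 1460 CPM in the high and 1200 CPM in the low fraction, and Ly6a, which encodes Sca-1, had 125 and 119 CPM, neither called. Cd48, which marks the more differentiated LSK cells, fell, but 4 of 8 fits with 1 library left out did not call it (adjusted p = 0.0507 to 0.0781), those lacking replicate 1, 2 or 4 of Hdc-GFPhi or replicate 1 of Hdc-GFPlo. The sums carry no test and can rest on a few abundant genes. For the counts below, 0.707% of all genes tested were called lower and 10.9% had an unadjusted p under 0.05 in either direction. In the direction of Ikzf1, 8 B cell markers summed to 95.5 to 177 CPM in Hdc-GFPhi libraries and 198 to 339 in Hdc-GFPlo. Of these genes, 1 was called lower, Cd79a, and 5 had an unadjusted p under 0.05. Cd22 (log2 fold change 0.35) and Fcer2a (0.37) lay above 0. The sums of 6 monocyte markers were 507 to 531 against 632 to 663 CPM. Of these genes, 2 were called lower and 3 had an unadjusted p under 0.05. Most of each sum was Lyz2, not called, with means of 398 and 446 CPM, and Cd14 (log2 fold change 0.52) lay above 0. The same side was taken by the sums of 5 measured neutrophil markers (759 to 1090 against 1160 to 1470 CPM, 0 called and 1 with an unadjusted p under 0.05). Sums of 5 plasmacytoid dendritic cell markers also took it (257 to 283 against 311 to 416 CPM, 2 called lower and 3 with an unadjusted p under 0.05). Most of each dendritic cell sum was Tcf4, not called, with means of 189 and 248 CPM. In the direction of Ikzf4, 6 megakaryocyte markers summed to 131 to 149 CPM against 81.2 to 110 CPM, with 0 called and 2 at an unadjusted p under 0.05. The part of these cell types in the levels of Ikzf1 and Ikzf4 was not tested, and in bulk RNA fewer cells of a type and less RNA per cell cannot be told apart.

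T cell markers, for the cell type in which Ikzf2 and Ikzf4 are best known, were near the floor. Cd8a had 0 counts in all libraries, Cd3e had 0 in Hdc-GFPhi and 7 in Hdc-GFPlo over 4 libraries each, and Foxp3, the factor that defines regulatory T cells, had 8 and 19. The 10 T cell markers summed to 16.8 to 30.5 CPM in the high and 21.8 to 33.9 CPM in the low fraction, most of it Cd4, and 6 regulatory T cell markers to 51.4 to 57.1 and 48.3 to 63.7 CPM, most of it Tnfrsf18. Of the regulatory T cell list, Icos fell (log2 fold change -1.40 ± 0.26), opposite to Ikzf4. With 1 library left out, 6 of 8 fits did not call it (adjusted p = 0.0525 to 0.0966), and the 2 that did lacked replicate 3 of Hdc-GFPhi or replicate 2 of Hdc-GFPlo. Summed levels also overlapped or were low for 6 NK cell markers (1.69 to 8.31 against 5.22 to 8.92 CPM), 6 erythroid markers (66.2 to 265 against 68.7 to 238 CPM, with Hba-a1 at 0) and 6 mast cell and basophil markers (11 to 68 against 6.41 to 96 CPM, with Mcpt4 at 0 in Hdc-GFPlo).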

How the data were processed

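The authors deposited 1 table of raw, not normalized read counts by gene symbol, with 8 libraries tied to samples by library codes in the labels. Per the submitters' processing notes, the tools were HTSeq 0.6.1, TopHat2 2.04, Bowtie2 and bcl2fastq 1.8.4, and the build was mm9. Settings, annotation and strandedness are not given in these sources. Titles gave the group and replicate number of each library. Since the labels do not tie replicates to separate animals, p-values measure only the spread between these libraries, which may be technical. Libraries of the same fraction all differed by more than sampling noise (chi-square per degree of freedom at least 13.8).

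Genes were kept with filterByExpr, scaled by TMM and tested with edgeR 4.0.16 (glmQLFit with robust estimation, glmQLFTest, no covariate) in R 4.3.3. SE and 95% intervals come from that fit. For log2 CPM the prior count was 2. The test was checked on simulated data, where it recovered 20% of genes with a log2 change of 0.5 and 92% at 1. The changes were planted only in genes above a count limit, so these shares do not cover genes with few counts, such as Ikzf3. Genes that were not called may therefore still differ, and those with few counts by large amounts. Alternatives used other scalings, filters and tests (DESeq2 1.42.0, limma 3.58.1 voom), a replicate block, a covariate for replicates 1 and 2 against 3 and 4, thinning, and fewer libraries.

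Named genes are the members, called genes and up to 3 genes with the smallest p per list, chromosomal neighbours, and the 3 genes of highest Pearson r with each member (mean count at least 50). Hes1, Ccnd3, Myc, Flt3, Chd4 and single markers were added after their values were seen. The members and lists were chosen with earlier results of these data known. Lengths come from GENCODE M21 and promoters from RefSeq, both on GRCm38 and used without converting coordinates. A result that needs an item withheld for evaluation is not reported here.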

Additional observations from a re-analysis of the deposited data

Results flagged for a closer look

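Within the 4 libraries of each fraction, Dixon's test was applied to the log2 CPM of each member, which makes 10 groups, of which chance marks about 1 in 20. In 2 of them a library stood apart. Ikzf3 was at -2.43 in Hdc-GFPhi replicate 4, where the next library was at 0.11, from 2 counts against 21 to 27 in the other Hdc-GFPhi libraries. Ikzf1 was at 7.59 in Hdc-GFPhi replicate 3, where the next was at 7.47, and all Hdc-GFPlo libraries were higher still, at 7.85 to 8.07.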

How the results depend on the processing

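The 5 members kept their direction under all 20 alternatives (19 for Ikzf3, which a filter of 50 counts in 4 libraries removes), and of the 54 genes refitted under these alternatives, members included, 0 reversed with a call involved. Of the cell type markers named, Kit, Ly6a, Cd48 and Icos were refitted and the others were not. Ikzf1 and Ikzf4 were each called in 13 of 20, with adjusted p from 8.15e-05 to 0.149 and from 1.76e-04 to 0.117, and Ikzf2, Ikzf3 and Ikzf5 in 0. The number of called members was 0 to 1 with 1 library left out and 1 when both Hdc-GFPhi replicate 4 and Hdc-GFPlo replicate 3 were left out. Over all genes, 126 calls (32 higher) became 404 (163 higher) with DESeq2, 278 (99 higher) with voom, 275 (84 higher) with a term for replicates 1 and 2 against 3 and 4, and 52 to 146 with 1 library left out, the lowest without Hdc-GFPlo replicate 1 and 68 without Hdc-GFPhi replicate 3. The cause was not tested. With the replicate block, 224 genes were called (84 higher), Ikzf1 (adjusted p = 0.0448) and Ikzf4 (0.0294) among them, and 10 genes of the Ikaros-regulated list. The labels tie samples of the same number by that number only, so whether they are pairs is not known. Correlations of their deviations were 0.257, 0.347, 0.076 and 0.1. Hdc-GFPhi replicates 1 and 2 correlated best with the Hdc-GFPlo library of the same number, and replicates 3 and 4 with another number. Ikzf3 rests on at most 50 counts per library. The SE of its log2 fold change was 0.57, against 0.41 without Hdc-GFPhi replicate 4, which had 2 counts, and 0.53 with all libraries thinned to the smallest total.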
